A study of Populus davidiana with 6 samples.

Results

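Among the annotated leaf genes of Populus davidiana, an aspen, 37 were nearly silent in control leaves and clearly expressed once the plants had lain in open air for about 10 min. The genes were selected on these values: a gene was taken when the highest of its 3 control values lay under 1 FPKM and the lowest of its 3 air-dried values reached at least 3 FPKM. FPKM counts sequenced fragments relative to the length of the transcript and to the mapped total of the library, here added up over the transcripts of a gene. Only genes that carried a Populus identifier, held at least 1 annotated transcript and spanned 500 bp or more of the genome were eligible, which left 32745 of the 40537 genes in the tables. The air-dried and control values of all 6 libraries chose these 37 genes, so the difference between the groups is a description and no test of it.

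The air-dried group held 3 leaf samples of about 6-week-old plants, pulled out of the sterile culture medium, washed with water and left in the open for about 10 min. The control group held 3 leaf samples of plants that were likewise listed at an age of 6 weeks. The labels do not say whether those plants were also pulled and washed, so handling and drying cannot be told apart. Both groups were seedlings of the cultivar Seogwang15, described as sensitive to drought and propagated by internode culture on a medium with sucrose and the auxin NAA. Poly(A) RNA was sequenced as paired reads of 100 bp. Each group holds 3 libraries, and the labels do not say whether these came from separate plants, so the spread between them may be technical.

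Leaves that lose water respond through cell turgor, calcium signals and the stress hormone abscisic acid, and pulling or touching a plant also sets off fast mechanical and wound signals. Genes that react within minutes in plants commonly encode transcription factors, calcium-binding proteins, hormone enzymes and protein phosphatases or kinases, and many have short transcripts with few or no introns. Whether the 37 genes belong to any of these kinds is not known from these files: the gene name column was empty, with 0 names, and no annotation or sequence was used here. The tables do not pair identifiers with names, so genes are given below by their position, on the build of the deposited tables, which is not named in the sources used here. The labelled tissue could not be checked against leaf markers for the same reason.

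Few genes crossed from silent to expressed. Of the 32745 eligible genes, 13512 lay under 1 FPKM in every control. Of these, 12817 also stayed under 1 FPKM in every air-dried library, 497 reached 1 FPKM in some but not all of the air-dried libraries, and 198 reached it in every one. The limit of 3 FPKM was reached in all 3 air-dried libraries by 37, which is 0.274% of the genes silent in control, and at least 10 FPKM by 10. The opposite pattern, under 1 FPKM in every air-dried library and at least 3 FPKM in every control, was met by 3 eligible genes. At 1 FPKM or more in every control, 49 were under 1 FPKM in every air-dried library. Control 1 listed 11731 eligible genes at 0, against 8769 to 10248 in the other libraries. The part of this in the counts of either direction was not tested.

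**Figure D1:**
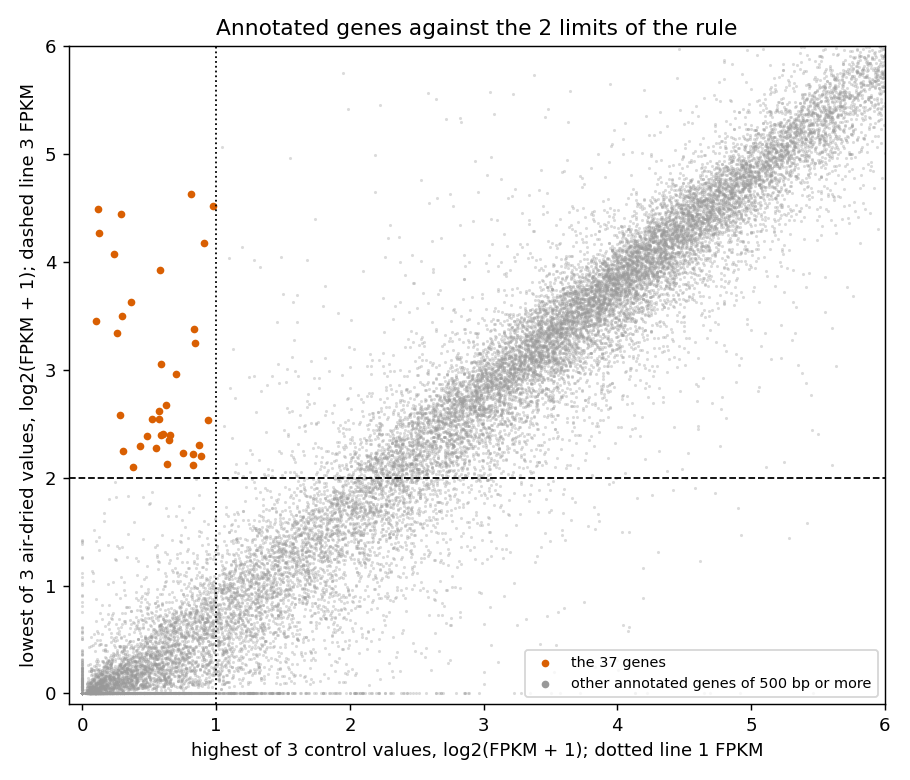
Each point is an annotated gene spanning 500 bp or more, with the lowest of its 3 air-dried values on the vertical axis and the highest of its 3 control values on the horizontal axis, both as log2(FPKM + 1) and shown up to 6. The 37 genes (orange) lie in the corner above the dashed line at 3 FPKM and left of the dotted line at 1 FPKM. The rule cuts this corner out, and other genes (grey) come close to both lines.

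Together the 37 genes summed to 372, 362 and 357 FPKM in air-dried 1, 2 and 3, against 8.15, 12.4 and 14.3 FPKM in controls 1, 2 and 3. The median gene had 5.98, 7.82 and 7.67 FPKM in the air-dried libraries and 0.0653, 0.289 and 0.364 FPKM in the controls. These genes ended at modest levels: among the 17932 eligible genes at 1 FPKM or more in every air-dried library, their air-dried means stood between the 13.9 and the 76.6 percentile, with a median at the 30.4 percentile. The ratio of the air-dried to the control mean ranged between 5.90 and 418, with a median of 25.4; it was at least 10 in 32 genes and at least 100 in 8. Without replicate 1, which stood apart from the other libraries, the ratio ranged between 5.04 and 270 with a median of 20.1, and it was at least 10 in 32 genes and at least 100 in 6.

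On log2(FPKM + 1), a scale that shrinks the change of genes with low values, the difference between air-dried and control ranged between 1.54 and 4.46 with a median of 2.54, compared with 0.03 over all 22818 genes tested. All 37 genes passed limma at an adjusted p under 0.05, against 5.39% of all tested genes that rose and 5.84% of the tested eligible genes. In all 37 the groups do not overlap because the rule sets them apart, against 19.6% of all tested genes whose lowest air-dried value lay above the highest control value. Nothing is read from these counts, since the rule used the same contrast, and with 3 FPKM or more in each air-dried sample all 37 had to pass the filter that the test used, a 6-library mean of 1 FPKM or more.

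The limits themselves were not sharp features of the data. Of the 3 genes just inside the limit on the air-dried side, the chromosome 8 gene at 6310729 to 6312668 (plus strand) had 4.33, 3.34 and 3.58 FPKM in the air-dried libraries and 0.592, 0.516 and 0.777 FPKM in the controls. Just outside it, the chromosome 5 gene at 8417680 to 8419691 (minus strand) had 3.62, 2.97 and 3.21 FPKM in the air-dried libraries and 0.437, 0.777 and 0.799 FPKM in the controls. The 3 genes just outside the limit on the control side had log2 differences of 1.94, 3.45 and 4.37, all within the range of the 37 genes. On chromosome 18 the minus-strand gene at 8591115 to 8592969 had 32.5, 35.05 and 35.8 FPKM in the air-dried libraries and missed the rule through control 1 alone, with 1.07, 0.572 and 0.552 FPKM in the controls. On chromosome 7 the plus-strand gene at 2018830 to 2019798, with 18.8, 17.7 and 15.4 FPKM in the air-dried libraries, was left out by its 1.14 FPKM in control 1, beside 0.711 and 0.277 FPKM in controls 2 and 3. The third, on the plus strand of chromosome 14 at 10248976 to 10250608, had 4.56, 5.53 and 6.19 FPKM in the air-dried libraries and 0.0709, 1.06 and 1.08 FPKM in the controls.

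Replicate 1 of each group was unlike the rest over the whole transcriptome. Across the tested genes, the correlation of air-dried 1 with replicates 2 and 3 was r = 0.78 to 0.83, that of control 1 with any other library r = 0.55 to 0.67, and that among replicates 2 and 3 r = 0.90 to 0.94. Transcripts above 10000 FPKM numbered 93 in air-dried 1 and 191 in control 1, against 12 to 18 in the other 4 libraries. An exact 0 can be a failed estimate, and 10248 eligible genes were listed at 0 in air-dried 1 and 11731 in control 1, compared with 8769 to 9712 in the others. Ratios of the air-dried to the control mean are therefore given with and without replicate 1.

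The same rule was read in the libraries of 2 replicate numbers and then looked up in those of the third, which that choice had not used. The numbers are not taken to mark pairs. In replicates 2 and 3 the rule chose 51 genes. All 51 were higher in air-dried 1 than in control 1, with a median of 5.98 FPKM in air-dried 1 and 0.116 FPKM in control 1; among the 18614 tested eligible genes, 50.3% were higher in air-dried 1. Of the 51, 47 reached 3 FPKM in air-dried 1 and 40 stayed under 1 FPKM in control 1. Those that met both limits there are by definition the 37 genes, which are also part of the other 2 choices. With replicate 2 held out, 46 of 47 genes were higher in air-dried 2 than in control 2 (58.2% of the tested eligible genes were), and with replicate 3 held out, 40 of 40 were higher in air-dried 3 than in control 3 (56.5%). Each held-out number is 1 sample per group and allows no test. The single exception was the chromosome 14 gene at 17039671 to 17040533 (plus strand), with 7.17, 4.64 and 5.76 FPKM in the air-dried libraries and 7.84 FPKM in control 2 while it was listed at 0 in controls 1 and 3.

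Ordered by the lowest air-dried value, 10 genes had 10 FPKM or more in each air-dried library, 8 held 5 to under 10 FPKM in their lowest library, and 19 lay under 5 FPKM there. The log2 differences were 3.49 to 4.46 in the first class, with standard errors of 0.09 to 0.25. They were 2.45 to 3.56 in the second class and 1.54 to 2.82 in the third.

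**Figure D2:**
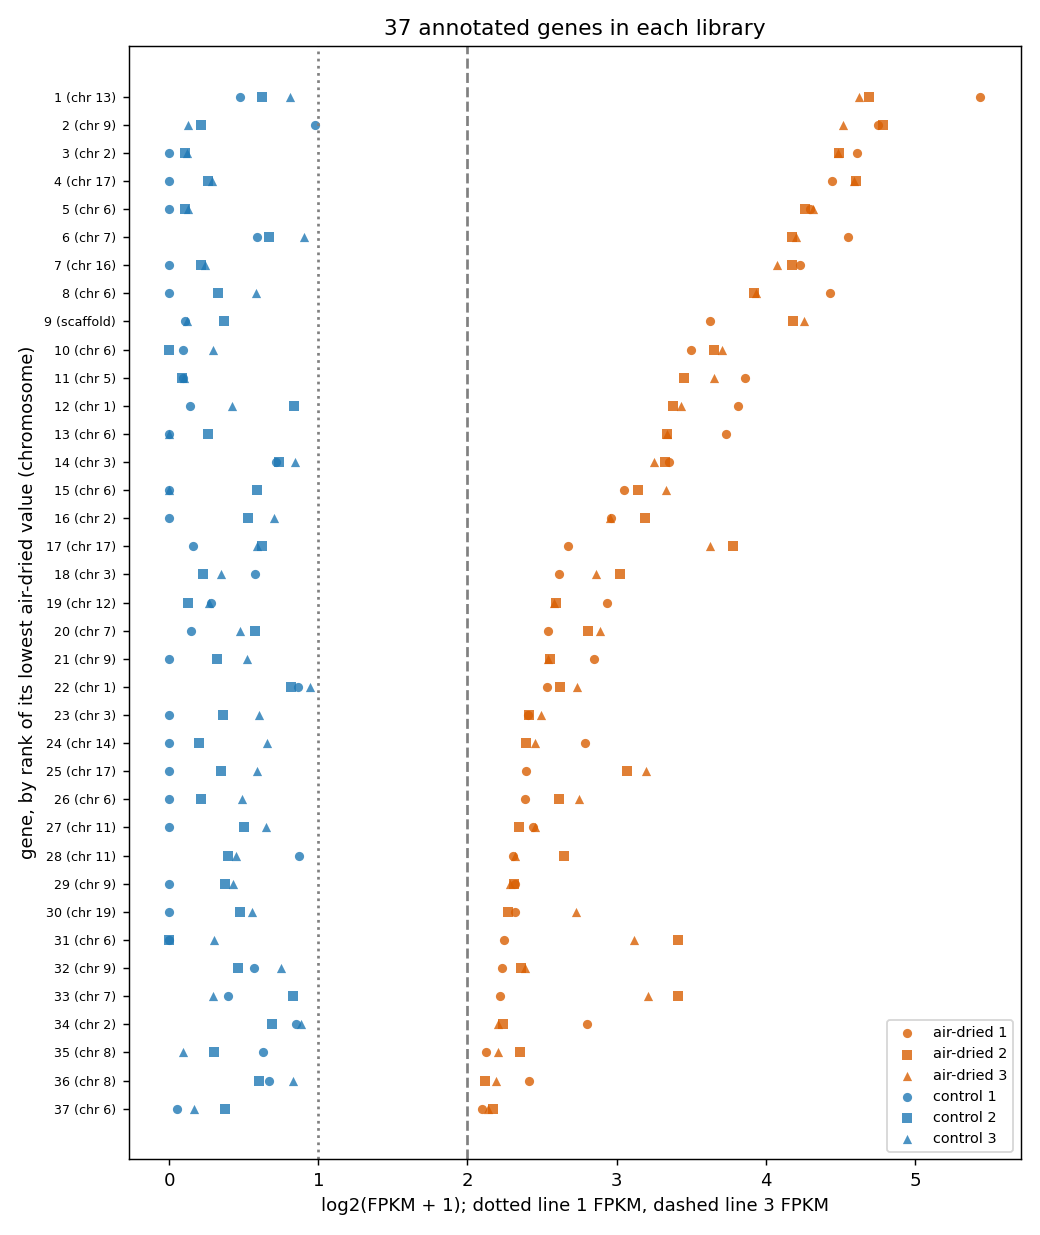
Each row is 1 of the 37 genes, ordered by its lowest air-dried value and labelled with its rank and chromosome; points are log2(FPKM + 1) in the 3 air-dried libraries (orange) and the 3 controls (blue), with the dotted line at 1 FPKM and the dashed line at 3 FPKM. Air-dried 1 lies away from air-dried 2 and 3 in several rows, to the right in the gene of rank 1 and to the left in those of ranks 17, 25, 31 and 33.

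The first gene in this order was POPTR_0013s14730, on the plus strand of chromosome 13 at 14860460 to 14861210, with 42.3, 24.9 and 23.7 FPKM in air-dried 1, 2 and 3 and 0.387, 0.539 and 0.751 FPKM in controls 1, 2 and 3. Air-dried 1 stood well above the other air-dried libraries, and all 3 were far above the controls (log2 difference 4.29, SE 0.25). POPTR_0009s10470, on the plus strand of chromosome 9 at 9000204 to 9001004, had 25.96, 26.6 and 21.9 FPKM in the air-dried libraries and 0.967, 0.161 and 0.0923 FPKM in the controls. Its control 1 value lay just under the limit and far above those of controls 2 and 3; the ratio of the air-dried to the control mean was 61.0 with all libraries and 192 without replicate 1.

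The gene with the widest difference of all 37 lay on the plus strand of chromosome 2 at 93065 to 94085. It had 23.4, 21.5 and 21.4 FPKM in the air-dried libraries, was listed at 0 in control 1, and had 0.0739 and 0.0850 FPKM in controls 2 and 3 (log2 difference 4.46, SE 0.09). Its air-dried mean was 418 times the control mean with all libraries and 270 times without replicate 1. In annotated genes of 900 to 1200 bp with 1 transcript, the 5th percentile of the values above 0 was 0.0800 FPKM in control 2 and 0.0867 FPKM in control 3, and the values of this gene lay just under both.

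In 3 other genes of this class the air-dried libraries were also close together, and no control exceeded 0.221 FPKM. On chromosome 6 the plus-strand gene at 11403548 to 11404485 had 18.7, 18.2 and 19.0 FPKM in the air-dried libraries, was listed at 0 in control 1, and had 0.0781 and 0.0915 FPKM in controls 2 and 3. Its air-dried mean was 329 times the control mean with all libraries and 219 times without replicate 1. On chromosome 16 the minus-strand gene at 12811596 to 12812444 had 17.7, 17.0 and 15.9 FPKM in the air-dried libraries, a 0 in control 1, and 0.157 and 0.179 FPKM in controls 2 and 3. On chromosome 17 the minus-strand gene at 1781538 to 1783081 had 20.8, 23.4 and 23.1 FPKM in the air-dried libraries, a 0 in control 1, and 0.196 and 0.221 FPKM in controls 2 and 3. In these 3 genes the air-dried values spread by 0.06 to 0.16 on the log2 scale.

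The remaining genes of the first class differed more between libraries. On chromosome 7, a gene on the plus strand at 828453 to 830545 had 22.4, 17.1 and 17.5 FPKM in the air-dried libraries and 0.502, 0.590 and 0.874 FPKM in the controls, the highest control mean of the class at 0.656 ± 0.195 FPKM (SD, n = 3), and the smallest ratio of means, 29.0 with all libraries and 23.6 without replicate 1. On chromosome 6 the plus-strand gene at 11398834 to 11399764 had 20.5, 14.1 and 14.3 FPKM in the air-dried libraries, was listed at 0 in control 1, and had 0.253 and 0.495 FPKM in controls 2 and 3. The only member on an unplaced scaffold, on its plus strand at 486 to 2077, had 11.4, 17.1 and 18.1 FPKM in the air-dried libraries and 0.0777, 0.289 and 0.0839 FPKM in the controls. In this gene air-dried 1 was the lowest of its group, whereas it was the highest in the chromosome 7 and chromosome 6 genes just given. The last of the 10, on the plus strand of chromosome 6 at 22192804 to 22193878, had 10.3, 11.6 and 12.1 FPKM in the air-dried libraries, 0.0653 FPKM in control 1, a 0 in control 2 and 0.226 FPKM in control 3.

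In the class with 5 to under 10 FPKM in the lowest air-dried library, the 8 genes lay on 6 chromosomes and reached at most 13.5 FPKM. On chromosome 5 the plus-strand gene at 16363049 to 16364216 had 13.5, 9.92 and 11.6 FPKM in the air-dried libraries, and its 0.0672, 0.0612 and 0.0709 FPKM made it the most even of the 37 genes in the controls: 11.7 ± 1.80 FPKM air-dried against 0.0664 ± 0.00490 FPKM in control (SD, n = 3 each). On chromosome 6 the minus-strand gene at 3440346 to 3440877, the shortest of all at 532 bp, had 12.3, 9.12 and 9.12 FPKM in the air-dried libraries and was above 0 in only 1 control, with 0.196 FPKM in control 2. On chromosome 1 the minus-strand gene at 38234977 to 38236403 had 13.1, 9.41 and 9.78 FPKM in the air-dried libraries and 0.0990, 0.783 and 0.337 FPKM in the controls. Of these 3, the chromosome 1 gene had the widest control range, and in each the air-dried 1 value was the highest of its group.

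The tightest gene of that class was not among the lowest in control. On the plus strand of chromosome 3 at 12135176 to 12135829, it averaged 8.91 ± 0.363 FPKM in the air-dried libraries and 0.701 ± 0.0806 FPKM in the controls (SD, n = 3 each), a ratio of means of 12.7, or 11.99 without replicate 1, the smallest in the class by both. On chromosome 6 the plus-strand gene at 18336630 to 18337728 had 7.30, 7.82 and 9.06 FPKM in the air-dried libraries and was listed at 0 in controls 1 and 3, with 0.500 FPKM in control 2. On chromosome 2 the plus-strand gene at 6023692 to 6024520 had 6.81, 8.12 and 6.77 FPKM in the air-dried libraries, a 0 in control 1, and 0.442 and 0.627 FPKM in controls 2 and 3. These genes stayed clearly above the 3 FPKM limit in each air-dried library. Another chromosome 3 gene, on the plus strand at 9439142 to 9440943, had 5.12, 7.14 and 6.28 FPKM in the air-dried libraries and 0.490, 0.169 and 0.272 FPKM in the controls. The last of the 8 lies on chromosome 17 and is given below with its neighbour.

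The 19 genes of the lowest class lay on 12 chromosomes and had air-dried means of 3.40 to 7.18 FPKM, with control values up to 0.922 FPKM. The ratio of means was 5.90 to 90.4 with all libraries and 5.04 to 74.3 without replicate 1. By both, the smallest ratio belonged to the chromosome 2 gene at 12220485 to 12221240 (minus strand), which averaged 4.44 ± 1.34 FPKM in the air-dried libraries and 0.753 ± 0.125 FPKM in the controls (SD, n = 3 each). The largest belonged to the chromosome 6 gene at 10244966 to 10245625 (minus strand), with 3.74, 9.65 and 7.67 FPKM in the air-dried libraries, where control 3 at 0.233 FPKM was the only control above 0. The highest control mean of all 37 genes, 0.834 ± 0.0807 FPKM, was that of the chromosome 1 gene at 7990430 to 7992409 (plus strand), whose air-dried mean was 5.19 ± 0.424 FPKM (SD, n = 3 each). On chromosome 9 the minus-strand gene at 3887485 to 3889377 had 3.98, 3.97 and 3.88 FPKM in the air-dried libraries, the smallest spread of the 37 genes, and 0.296 and 0.345 FPKM in controls 2 and 3 beside a 0 in control 1.

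Silent did not mean absent in the controls. No gene was listed at 0 in all 3 controls (0 of 37), 3 were listed at 0 in 2 controls, and 19 were above 0 in every control. The zeros were uneven between libraries: 17 of the 37 genes were listed at 0 in control 1, 2 in control 2 and 2 in control 3. Control 1 also held the lowest control value, ties included, in 25 of the 37 genes, and control 3 the highest in 24. The part of the library difference in these zeros was not tested.

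Among the air-dried libraries, replicates 2 and 3 were close in nearly all genes. In 33 of the 37 genes they lay within 20% of each other. That share is not given for other genes, and over all tested genes the correlation of these 2 libraries was r = 0.94. Air-dried 1 was below both of them in 17 genes, above both in 15 and between them in 5, and its ratio to their mean ranged between 0.409 and 1.74 with a median of 0.960. The spread of the 3 air-dried values on log2(FPKM + 1) had a median of 0.34 over the 37 genes, compared with 0.22 over the 11223 other tested eligible genes with air-dried means in the same range. It was under 0.25 in 14 of the 37 genes, over 0.5 in 8 and over 1 in 3.

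The 3 widest spreads all came from a low air-dried 1. On chromosome 7 the minus-strand gene at 788685 to 789547 had 3.66, 9.62 and 8.26 FPKM in the air-dried libraries and 0.314, 0.778 and 0.224 FPKM in the controls, so air-dried 1 was 0.409 times the mean of the others. In the chromosome 6 gene at 10244966 to 10245625 that ratio was 0.432. In the chromosome 17 gene at 5627545 to 5628871 it was 0.447. In air-dried 1 the chromosome 7 and chromosome 6 genes lay just inside the limit of 3 FPKM, and the chromosome 17 gene, at 5.39 FPKM, was further inside it.

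**Figure D3:**
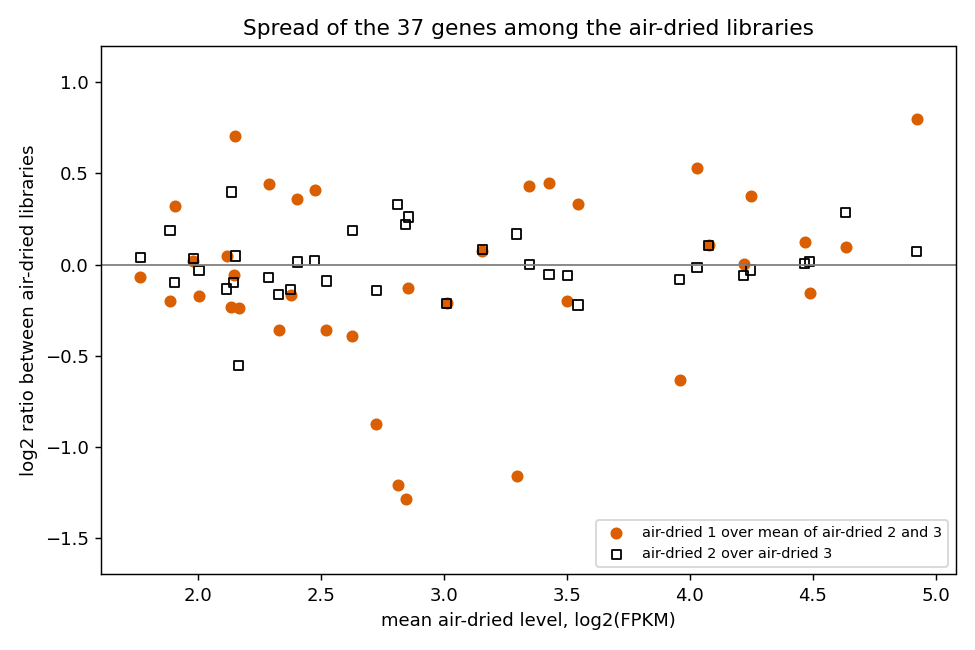
For each of the 37 genes, the log2 ratio of air-dried 1 to the mean of air-dried 2 and 3 (filled circles) and of air-dried 2 to air-dried 3 (open squares) is plotted against the mean air-dried level as log2(FPKM). The circles range between -1.29 and 0.80, with 3 genes under -1, while the squares range between -0.56 and 0.40.

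Most of the genes had a compact structure, which the rule did not name. No structure is given here for the genes silent in control, so the trait is not shown to be particular to the 37. In 35 of the 37 (94.6%) the gene was a single annotated transcript to which the assembly had added none. A single transcript was found in 52.3% of the eligible genes and in 23.5% of the 18614 that were tested. The tested genes are part of the eligible ones, so the share lay far above 52.3% in eligible genes too low to be tested. There it was closer to the share of the 37 than to that of the tested genes. It was 19.6% in the 11223 other tested genes with air-dried means in the range of the 37. The genomic span had a median of 1143 bp and a maximum of 2382 bp, compared with medians of 2439 bp in the eligible genes, 3431 bp in the tested eligible genes and 3765 bp in those of the same air-dried level. The lower limit of the rule was 500 bp, and 14 of the 37 spanned under 1000 bp. The part of the low control levels in the number of added transcripts was not tested. The tables list no exons, so the length of the transcripts within these spans is not known.

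Added transcripts were present in 2 genes, both on the plus strand of chromosome 6. In the gene at 7781925 to 7783892 the annotated transcript had 1.95, 2.13 and 2.56 FPKM in the air-dried libraries and was at or next to 0 in every control, while its 2 added transcripts held the rest of the summed 4.22, 5.11 and 5.72 FPKM. In the gene at 7791808 to 7793884 the annotated transcript had 0.243, 3.50 and 2.49 FPKM in the air-dried libraries and 0.298 FPKM in control 2, and the added one had 3.05 FPKM in air-dried 1 but 0.914 FPKM in air-dried 3. The sum of that gene was even, at 3.29, 3.50 and 3.41 FPKM air-dried against 0.0376, 0.298 and 0.123 FPKM in control, whereas the split between its transcripts was not. On annotated transcripts alone neither gene meets the rule, and the log2 difference was 1.68 (SE 0.23) in the first and 1.30 (SE 0.53) in the second.

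The 36 genes placed on chromosomes were spread over 15 of the 19, and of all 37 genes 20 lay on the plus and 17 on the minus strand. Chromosome 6 held 8 of them (21.6%), compared with 6.92% of the eligible genes and 5.70% of those silent in control. Chromosome 9 held 4 and chromosomes 2, 3, 7 and 17 held 3 each, while chromosomes 4, 10, 15 and 18 held 0. The chromosome 6 count includes 2 pairs of close neighbours, which need not be independent.

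Several members lay close together. In 4 pairs the 2 genes were less than 50 kb apart, and the next closest pair was 1153 kb apart. The nearest, on the plus strand of chromosome 6, are the genes at 11398834 to 11399764 and at 11403548 to 11404485 described above, with 3783 bp and no annotated gene between them and spans of 931 and 938 bp. The annotated genes on either side of this pair were well expressed in both groups: the one before it had a mean of 368 FPKM air-dried and 356 FPKM in control, and the one after it 17.5 FPKM air-dried and 11.3 FPKM in control, and neither passed the test (limma adjusted p = 0.72 and 0.11).

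The second pair lay on the minus strand of chromosome 17, 5694 bp apart, with spans of 1327 and 1331 bp. The gene at 5627545 to 5628871 had 5.39, 12.7 and 11.3 FPKM in the air-dried libraries and 0.116, 0.542 and 0.503 FPKM in the controls. The gene at 5634566 to 5635896 had 4.25, 7.41 and 8.17 FPKM in the air-dried libraries, a 0 in control 1, and 0.271 and 0.504 FPKM in controls 2 and 3. In both genes air-dried 1 was the lowest of the air-dried libraries, at 0.447 and 0.545 times the mean of the others.

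The next 2 annotated genes on that strand, which are not members, were also listed at or near 0 in the controls. The one at 5639571 to 5640874 had 2.54, 1.17 and 2.56 FPKM in the air-dried libraries against 0, 0.0565 and 0 FPKM in the controls, and it rose (log2 change 1.56, limma adjusted p = 0.020). The one at 5643234 to 5644775 was listed at 0 in air-dried 1 and in all 3 controls and had 1.13 and 1.64 FPKM in air-dried 2 and 3; its mean was too low to be tested. These 4 consecutive genes, with spans of 1304 to 1542 bp, were therefore all higher in air-dried 2 and 3 than in controls 2 and 3. Whether they are near-identical copies, between which reads could be split, cannot be read from the tables.

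A merged locus on the opposite strand, from 5628345 to 5844565, overlaps 527 of the 1327 bp of the first gene of the chromosome 17 pair and all of the second. It rose as well, with 19.5, 24.0 and 24.1 FPKM in the air-dried libraries against 2.47, 1.39 and 1.59 FPKM in the controls (log2 change 3.08, limma adjusted p = 0.0013). Most of this came from an annotated transcript at the far end, at 5843071 to 5844565, with 16.0, 23.3 and 18.8 FPKM in the air-dried libraries and 2.11, 1.39 and 1.41 FPKM in the controls. The transcript that reaches the pair was added by the assembly, spans 216221 bp and had 3.57, 0.697 and 5.33 FPKM in the air-dried libraries. No strand-specific kit is named in the labels, so fragments from 2 genes that overlap cannot be told apart. The chromosome 17 gene at 1781538 to 1783081 also overlapped a merged locus, of 280038 bp on its own strand, which rose (log2 change 1.41, limma adjusted p = 0.0021) and had 6.48, 6.59 and 6.82 FPKM in the air-dried libraries against 1.64, 2.06 and 1.95 FPKM in the controls. No other member overlapped another gene model (3 of 37 did).

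The third pair is made of the 2 chromosome 6 genes with added transcripts, 7915 bp apart on the plus strand, with 1 annotated gene between them that was listed at 0 in all 6 libraries. The gene 2 places before this pair, on the minus strand at 7770420 to 7773548, had a mean of 4.67 FPKM air-dried and 1.58 FPKM in control and did not pass (log2 difference 1.19, limma adjusted p = 0.058). The fourth pair lay on opposite strands of chromosome 7, 38905 bp apart with 7 annotated genes between them. Of those 7, 5 could be tested and did not pass (limma adjusted p = 0.27 to 0.78), and 2 were listed at 0 in every library. The gene just after this pair, on the minus strand at 830778 to 835233, rose modestly, to a mean of 23.0 FPKM air-dried against 16.9 FPKM in control (log2 change 0.43, limma adjusted p = 0.036).

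**Figure D4:**
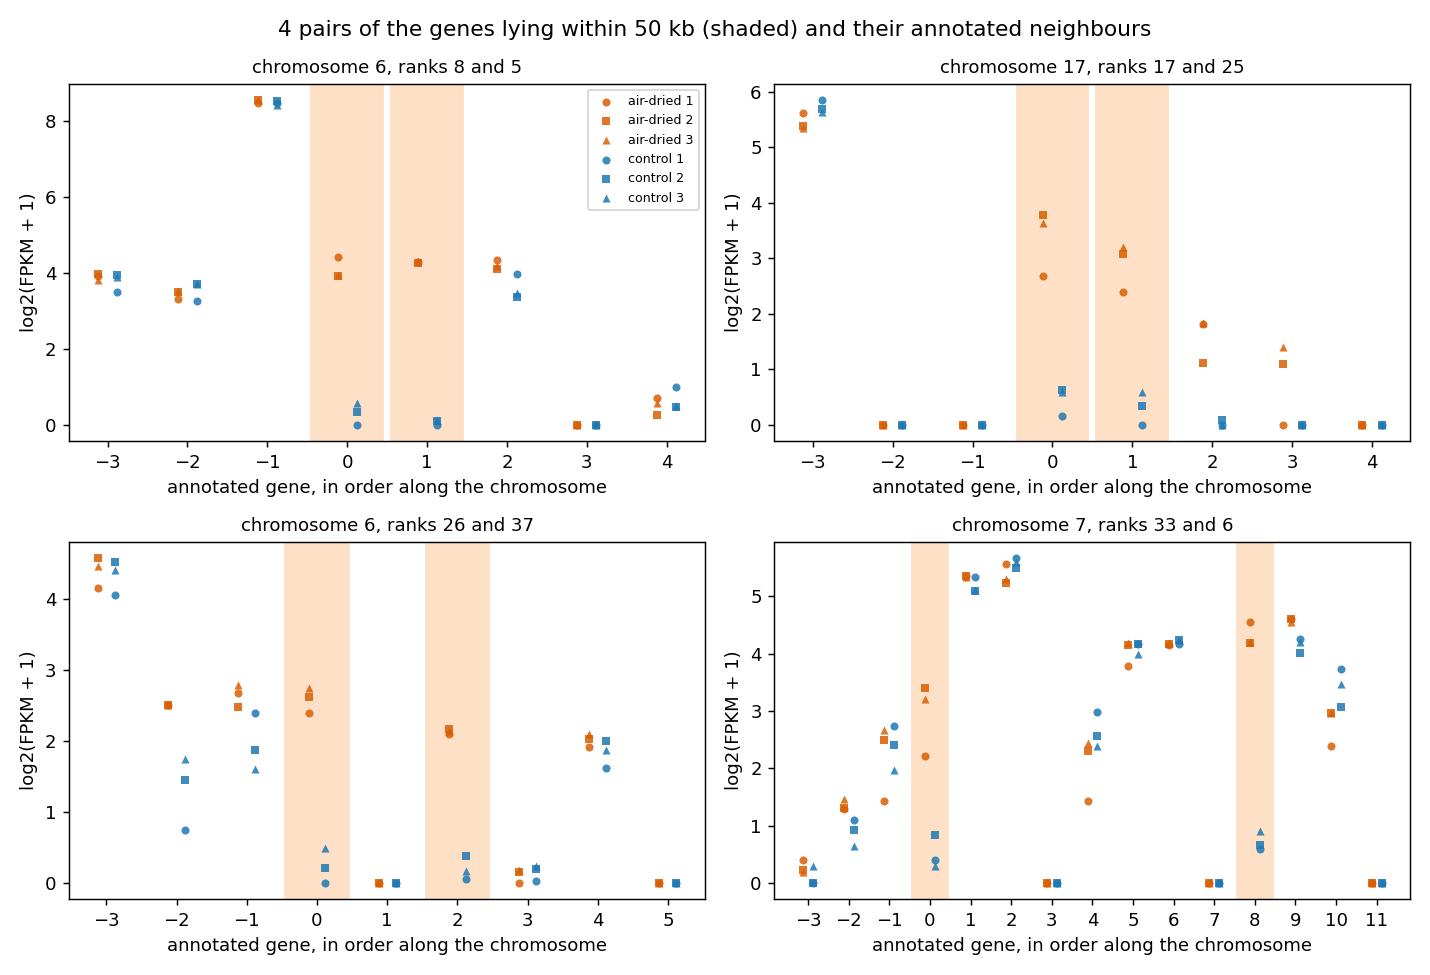
The 4 panels show log2(FPKM + 1) in the 3 air-dried libraries (orange, left) and the 3 controls (blue, right) for annotated genes in their order along the chromosome, with 0 at the first gene of each pair and the members shaded. Air-dried and control points are far apart in the shaded genes and closer or mixed in the others; the 2 genes after the chromosome 17 pair are at 0 or near it in the controls and above it in air-dried 2 and 3.

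Over all members, the annotated genes with a Populus identifier directly before and after numbered 72, of which 4 were themselves members. Of the other 68, 43 were expressed highly enough to be tested: 2 rose (4.65%, against 5.39% of all tested genes) and 0 fell by limma at an adjusted p under 0.05 (at an unadjusted p under 0.05, 8 were higher and 3 lower), and their median log2 difference was -0.01. These 2 are the chromosome 17 and chromosome 7 genes given above. A further 23 of the 68 (33.8%) lay under 1 FPKM in every library, compared with 43.2% of all annotated genes with such an identifier. Here and for the pairs above, annotated genes that the assembly had merged into loci without a Populus identifier were not counted as neighbours. Some of the neighbours may therefore not be the nearest annotated gene.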

How the data were processed

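Leaf RNA of 3 air-dried and 3 control samples was compared. The authors calculated FPKM for each of 112919 transcripts, per the file headers, and the submitters' processing notes name FastQC, TopHat and Cufflinks but no versions. Neither genome build nor annotation release is given in the sources used here. No read counts were used and the total depth is unknown. Here FPKM was summed by gene with pandas 2.3.3. Then limma 3.58.1 (R 4.3.3) was run on log2(FPKM + 1) of the genes whose 6-library mean reached 1 FPKM. It used a mean-variance trend, with Benjamini-Hochberg adjustment over all 22818 tested genes. The fit was tested on simulated data that gave each gene the same spread in all 6 libraries. The unlike replicate 1 libraries were therefore not imitated. Members and lists were chosen with earlier results of these data known. Individual genes are described in the order of their lowest air-dried value, then the pairs, the extremes of spread and the genes next to each limit; only the first 2 identifiers are printed. Identical values were held by 0 pairs of libraries. The labels do not say that a number marks a shared plant, batch or day, so the numbers were not taken as pairs. Between libraries of the same number, deviations from the group mean had correlations across genes of r = 0.02, 0.04 and 0.01. Whether the replicate 1 libraries, both unlike the rest, shared a preparation was not tested. Alternatives covered the pseudocount, filter, scaling, variance model, transcripts, libraries and limits of the rule. Gene lists prepared by name could not be used, and no sequences were printed, as no reference was used here.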

Additional observations from a re-analysis of the deposited data

How the results depend on the processing

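All 37 genes kept a positive log2 difference in each of the 19 alternatives that tested them. The rule had largely fixed this sign, since it set the groups apart. For the same reason nothing is read from how many of the 37 were called below. Their median, 2.54, was 4.42 with a pseudocount of 0.1 FPKM and 3.81 with a filter of at least 5 FPKM, which tested and called 14 of them. Over all genes, 1829 were called as reported, 5334 with array weights, 1210 on annotated transcripts only, 463 to 2031 without 1 library and 3107 without both replicate 1 libraries. A replicate block gave 661 calls, 33 of them among the 37 genes. Leaving out 1 library gave 37 to 47 genes by the rule, 34 to 37 of the 37 genes called and medians of 2.51 to 2.66. Without both replicate 2 or both replicate 3 libraries, alternatives chosen after the data were seen, limma called 0 genes and 0 of the 37; at an unadjusted p under 0.05 there were 2873 and 2716 genes, with 37 of the 37 in both. The rule itself gave 60 genes on annotated transcripts only, 18 with controls under 0.5 FPKM, 18 with at least 5 FPKM air-dried, 59 with at least 2 FPKM and 23 with spans of at least 1000 bp. The depth is unknown, so a gene listed at 0 has no lower limit.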

Other observations

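On annotated transcripts alone the limits were met by 60 genes, of which 35 were among the 37. The other 25 were not silent as whole genes, since with all their transcripts their median control mean was 28.2 FPKM. Of the 25, 10 rose as whole genes (limma adjusted p under 0.05, against 5.39% of all tested genes). Nothing is read from this count, since the annotated transcripts that chose the 25 on the same contrast are part of the sum. The split of fragments between the transcripts of a gene was estimated by the authors' software and can shift between libraries, as it did in the chromosome 6 gene at 7791808 to 7793884.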
